A study of Mus musculus with 8 samples.

Results

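The interferon-stimulated genes described here are 40 listed mouse genes, found as rows whose gene symbol equals a listed symbol in all 8 single-cell matrices of the series. A row was present for 39 of the 40, among 32285 genes in all, and Mx1 was not analysed here. They were grouped by role into 7 Ifit and Oas genes, 13 other antiviral genes with a row, 6 signalling genes, 7 guanylate-binding proteins (Gbp genes) and 6 immunity-related GTPases (IRG genes). The cells came from the femurs and tibiae of 8 female mice aged 7 or 13 weeks, with 2 control and 2 mutant mice at each age and 1 library per mouse. All mice carried floxed alleles of Sox4, Sox11 and Sox12 (Sox4fl/fl Sox11fl/fl Sox12fl/fl), and the mutants also carried OsxCre, a Cre recombinase driven by the promoter of Osx (Sp7), a gene of the osteoblast lineage. The controls thus lacked Cre, and an effect of OsxCre itself cannot be told apart from that of the 3 deleted genes. By the study's description, food with doxycycline kept OsxCre silent until weaning unless stated otherwise. Periosteum was scraped off, marrow was flushed out, the bone was digested, and cells with haematopoietic surface markers were depleted on magnetic columns before sequencing.

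Interferons signal through a pair of surface receptors. Type I interferons bind IFNAR1 and IFNAR2 and lead, through JAK kinases, to a complex of transcription factors, IRF9 among them, that binds the interferon-stimulated response element (ISRE), whereas interferon gamma binds IFNGR1 and IFNGR2 and leads to the use of gamma-activated sites (GAS). Ifit and Oas genes are classical type I targets, and Gbp and IRG genes are known above all as targets of interferon gamma, although each kind of interferon can induce both. In bone, interferons can restrain osteoclast formation in some settings, and they act on marrow stromal and vascular cells. The study describes their part in bone turnover as controversial and possibly dependent on context.

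The promoters of many members held the letters of these motifs. Of the 39 members, 31 matched an entry in the RefSeq promoter table (build GRCm38.p6, 250 bases before the start read here, 36 promoters). The ISRE letters, GAAA followed by any 2 bases and again GAAA, on either strand, were found for 20 of the 31 members and in 2.98% of all 32851 promoters in the table. The GAS letters TTCNNNGAA, which read the same on both strands, were found for 11 members and in 7.02% of all promoters. Both were found for 8 members and neither for 8. The ISRE letters were present in 5 of 5 Gbp and 5 of 5 IRG genes with a promoter, and in 4 of 6 Ifit and Oas genes. The 120 bases before the start are shown for 8 members, chosen because they span the roles and because 4 of the IRG genes share one arrangement. Each runs 5′ to 3′ on the strand of the gene, and capitals mark the ISRE and GAS letters. Isg15 lies at chr4:156200819-156200938 on the minus strand and Ifit1 at chr19:34640769-34640888, Gbp2 at chr3:142620543-142620662, Igtp at chr11:58199436-58199555, Irgm2 at chr11:58214857-58214976 and Irf1 at chr11:53769894-53770013 on the plus strand. Tgtp1 lies at chr11:48992247-48992366 and Tgtp2 at chr11:49064213-49064332, both on the minus strand.
Isg15: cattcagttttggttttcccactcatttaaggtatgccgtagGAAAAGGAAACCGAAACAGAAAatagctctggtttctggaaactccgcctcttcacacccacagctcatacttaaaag
Ifit1: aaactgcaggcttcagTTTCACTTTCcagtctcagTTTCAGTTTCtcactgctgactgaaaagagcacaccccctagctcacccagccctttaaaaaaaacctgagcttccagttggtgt
Gbp2: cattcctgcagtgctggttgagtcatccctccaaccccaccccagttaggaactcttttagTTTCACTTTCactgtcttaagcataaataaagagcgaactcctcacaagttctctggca
Igtp: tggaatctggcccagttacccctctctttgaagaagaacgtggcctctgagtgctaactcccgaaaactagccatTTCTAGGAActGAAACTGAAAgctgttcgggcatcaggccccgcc
Irgm2: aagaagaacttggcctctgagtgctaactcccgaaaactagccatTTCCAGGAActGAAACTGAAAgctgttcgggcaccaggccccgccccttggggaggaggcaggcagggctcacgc
Tgtp1: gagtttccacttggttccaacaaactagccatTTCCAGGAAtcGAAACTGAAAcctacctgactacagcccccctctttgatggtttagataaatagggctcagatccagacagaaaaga
Tgtp2: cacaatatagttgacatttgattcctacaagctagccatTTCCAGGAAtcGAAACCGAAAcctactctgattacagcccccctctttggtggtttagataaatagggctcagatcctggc
Irf1: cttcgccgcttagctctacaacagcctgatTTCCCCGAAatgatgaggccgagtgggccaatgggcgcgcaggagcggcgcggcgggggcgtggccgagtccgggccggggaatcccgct
In Isg15, 3 matches to the ISRE letters overlap, whereas Ifit1 has 2 separate ones on the opposite strand. In Igtp, Irgm2, Tgtp1 and Tgtp2 a GAS match starts 11 bases before an ISRE match. This spacing was noticed after the sequences had been read, and it occurs in 5 promoters of the whole table (0.0152%), of which these are 4. Irf1 has GAS letters alone. A match describes the letters and does not show that a factor binds there.

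The matrices held 12086 to 14151 barcodes and 81894604 to 156090286 UMIs (unique molecular identifiers, each counted as 1 RNA molecule) per library. After limits on genes and mitochondrial UMIs and removal of doublets, 6410 to 8753 cells per mouse and 59629 in all were kept, with medians of 7138 to 13050 UMIs. The replicate 1 libraries were the deeper ones in all 4 groups. Any pair of libraries shared 11 to 25 barcodes of kept cells. Cells were clustered without the interferon genes, so the clusters did not use the members, and 48857 cells fell into 13 types named from marker genes. The types are mesenchymal stromal cells (MSCs) of a Sca1+ and a Lepr+ kind, Lepr+ osteoprogenitors (OPs), preosteoblasts (preOBs), osteoblasts (OBs), cycling cells, growth plate chondrocytes (GPCs), hypertrophic GPCs, pericytes, endothelial cells and 3 haematopoietic types, which were found in spite of the magnetic depletion. They were rebuilt from the counts, and each name stands for cells that resemble the type by its markers. Sox4, the gene of the 3 that is well detected in these cells, was lower in the mutants. In Lepr+ MSC-like cells it stood at 443, 385, 440 and 364 CPM in the controls (the UMIs of a gene relative to all UMIs of the summed cells) and at 207, 158, 160 and 150 CPM in the mutants. In OB-like cells it fell by 1.59 on the log2 scale over both ages (adjusted p = 5.82e-04, edgeR).

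Endothelial-like and Lepr+ stromal cells had the highest levels of the 39 genes, and growth plate chondrocytes the lowest. The level of a gene group is the mean, over its genes and over the cells of a type, of ln(1 + UMIs per 10000). In the 4 controls, it was 0.411 ± 0.144 (SD, n = 4 mice) in endothelial-like cells, 0.358 ± 0.135 in Lepr+ MSC-like cells and, for Lepr+ OP-like cells, 0.295 ± 0.0961. This order held within each of the 4 control mice. Sca1+ MSC-like (0.188 ± 0.104), preOB-like (0.157 ± 0.0428), pericyte-like (0.155 ± 0.0550) and cycling (0.141 ± 0.0276) cells followed. Neighbours among these 4 types were not in the same order in all control mice, and they did not differ beyond their spread. Haematopoietic progenitor-like cells had 0.129 ± 0.0445 and lay above erythroid-like cells (0.0988 ± 0.0233) in 4 of 4 controls. Granulocyte- or monocyte-like cells (0.0943 ± 0.0130) lay below erythroid-like cells in 3 of 4 controls. OB-like cells (0.0905 ± 0.0215) lay below erythroid-like cells in 4 of 4, though the means differed by less than the SD over mice. OB-like cells lay above GPC-like cells (0.0420 ± 0.00503), and these above hypertrophic GPC-like cells (0.0308 ± 0.00304), in all 4 controls.

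**Figure D1:**
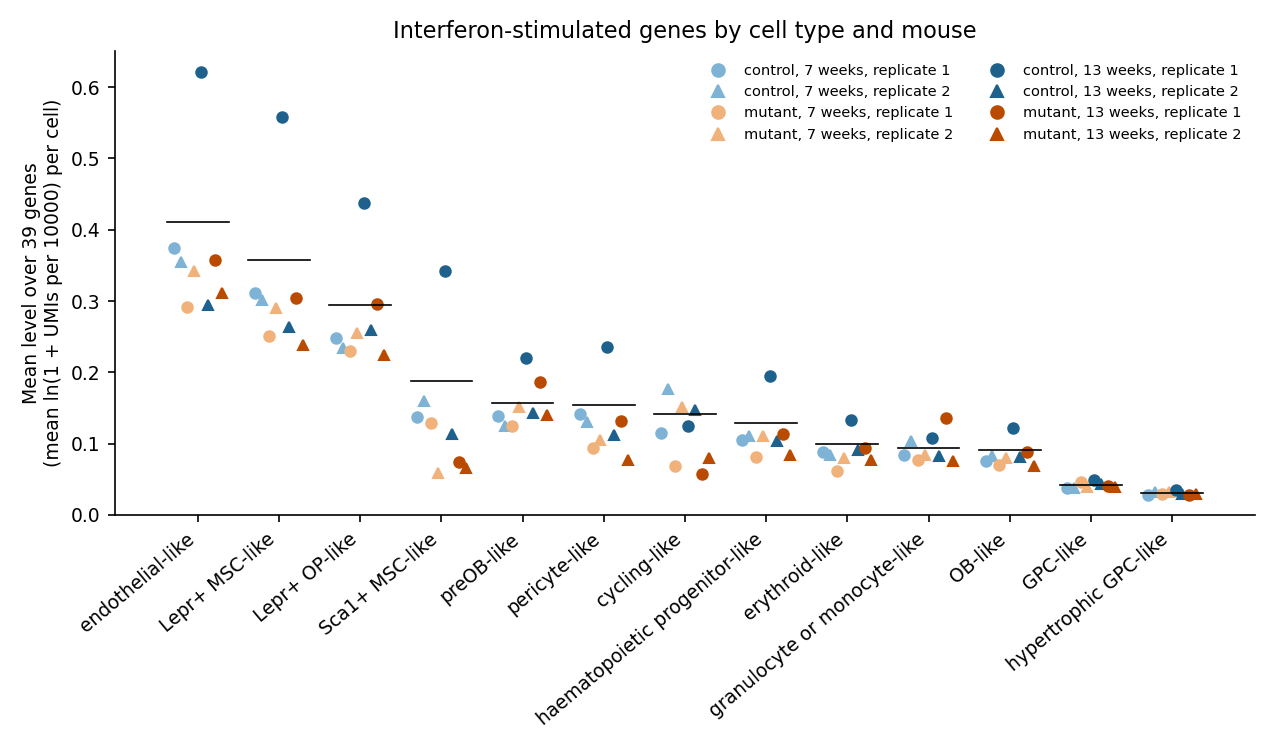
Mean level of the 39 interferon-stimulated genes, as ln(1 + UMIs per 10000), in the 13 cell types, with 1 point per mouse. Endothelial-like and Lepr+ MSC-like cells are highest in the controls (means 0.411 and 0.358), hypertrophic GPC-like cells are lowest (0.0308), and the control mouse of replicate 1 at 13 weeks is the highest point in 11 of 13 types.

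Within the stromal and osteoblast lineage the members were higher in Lepr+ MSC-like than in OB-like cells of the same control mice. Of 37 members past the filter on low counts, 34 were higher (edgeR quasi-likelihood test on UMI sums per mouse with the mouse as a block, adjusted p at most 0.05), against 34.8% of the 13614 genes tested. The 1 member called lower was Igtp (log2 fold change -0.28 ± 0.11 (SE), adjusted p = 0.0428, edgeR), against 35.1% of all genes. The median log2 fold change of the 37 was 1.95, beside 0.0079 for all genes. All 7 Gbp genes, all 6 Ifit and Oas genes past the filter, all 13 antiviral genes, 4 of 5 IRG genes and 4 of 6 signalling genes were higher. Irf1, a transcription factor that is induced by both kinds of interferon, differed by 0.17 ± 0.08 (adjusted p = 0.0893, edgeR), and Jak2, a kinase bound to the gamma receptor, by 0.34 ± 0.16 (adjusted p = 0.0828, edgeR).

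The size of the difference varied widely among members. Trim30a, a negative regulator of inflammatory signalling, had the largest log2 fold change, 4.60 ± 0.13. Iigp1, an IRG protein that attacks the vacuoles of intracellular parasites, stood at 545, 284, 1230 and 389 CPM in Lepr+ MSC-like cells of the 4 controls and at 23.8, 13.1, 35.8 and 18.6 CPM in their OB-like cells. The groups did not overlap, and the log2 fold change was 3.75 ± 0.12 (adjusted p = 9.09e-11, edgeR). Isg15, a ubiquitin-like modifier, stood at 216, 447, 567 and 322 CPM against 29.8, 44.7, 61.5 and 40.2 CPM, a log2 fold change of 2.24 ± 0.10. Irf7, which amplifies type I interferon production, had 110, 132, 287 and 80.2 CPM against 7.41, 9.22, 15.3 and 8.62 CPM, a log2 fold change of 2.96 ± 0.14. Among the Gbp genes, which encode GTPases that coat and break open microbe-containing vacuoles, the values ranged from 1.00 ± 0.34 for Gbp4 to 3.71 ± 0.16 for Gbp5, with 2.70 ± 0.08 for Gbp2. Iigp1, Isg15 and Irf7 were lower in OB-like than in Lepr+ MSC-like cells of every control mouse, also of the mouse with the highest values.

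Endothelial-like cells, with the higher level of the 39 genes in every control, differed from Lepr+ MSC-like cells in both directions gene by gene. Of 38 members past the filter, 14 were higher, beside 28.0% of all genes, and 8 were lower, beside 30%, with a median log2 fold change of 0.11. All 6 IRG genes were above 0, with a median of 0.65, and 3 of them were called. Gbp4 stood at 90.6, 83.7, 284 and 84.7 CPM in endothelial-like cells of the 4 controls and at 1.52, 2.17, 9.65 and 3.07 CPM in Lepr+ MSC-like cells, a log2 fold change of 4.93 ± 0.17 (adjusted p = 4.99e-10, edgeR). Rsad2 (viperin, an antiviral enzyme) was higher by 3.23 ± 0.34, at 254.6, 169.6, 238.5 and 129.5 CPM against 9.86, 26.1, 48.8 and 5.03 CPM. Ifit2, which binds viral RNA, was higher by 1.24 ± 0.19, Gbp7 by 0.94 ± 0.11 and Igtp by 0.90 ± 0.13. Tgtp1 was higher by 5.00 ± 0.59, but reads of Tgtp1 and its near-identical copy Tgtp2 may be split in counting, and the value is uncertain. Socs1, a feedback inhibitor of JAK kinases, was lower in endothelial-like cells by 1.19 on the log2 scale (-1.19 ± 0.13). Irf7 (-0.72 ± 0.18), Oas1a (-0.72 ± 0.28), Isg15 (-0.66 ± 0.11) and Ifit1 (-0.63 ± 0.12) were lower too. Gbp2, Oasl2 and Bst2 were the other members called lower.

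**Figure D2:**
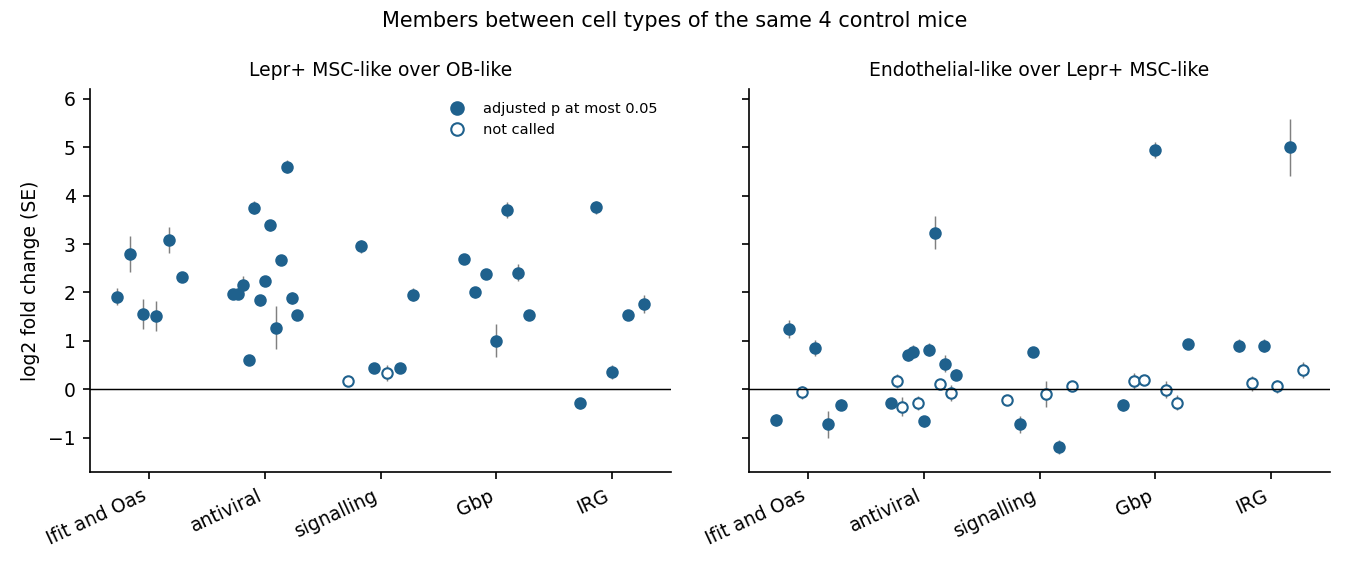
Log2 fold change of each member between cell types of the 4 control mice, with standard errors, for Lepr+ MSC-like against OB-like and endothelial-like against Lepr+ MSC-like cells. In the first comparison 34 of 37 members are higher, and in the second 14 of 38 are higher and 8 lower, with Gbp4 (4.93) and Tgtp1 (5.00) at the upper end.

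The type I-type genes (7 Ifit and Oas genes) and the gamma-type genes (13 Gbp and IRG genes) were set side by side in each cell type. Since capture efficiency differs between genes, the ratio of the levels was read across cell types only. In the controls the ratio was 3.59 ± 0.505 (SD, n = 4) in erythroid-like, 2.67 ± 0.220 in endothelial-like, 2.59 ± 0.363 in OB-like, 2.02 ± 0.342 in Lepr+ MSC-like and 1.59 ± 0.313 in Lepr+ OP-like cells. Endothelial-like cells lay above Lepr+ OP-like cells in every control mouse, at 2.93, 2.49, 2.49 and 2.77 against 1.96, 1.32, 1.34 and 1.73. The lowest ratios were those of GPC-like (0.861 ± 0.374) and hypertrophic GPC-like (0.743 ± 0.428) cells, where the control of replicate 1 at 13 weeks was highest, at 1.40 and 1.21. The ratios of both chondrocyte types rest on low counts. Ifit and Oas genes were about as rarely detected in erythroid-like and OB-like cells, whose ratios share this limit. In the controls 2.85% and 3.56% of these cells had such a UMI at 2000 UMIs per cell. The shares were 3.32% in GPC-like and 3.60% in hypertrophic GPC-like cells. The order of the other types depended on the scale. On log2 CPM of the summed UMIs, the mean of the gamma-type genes minus that of the type I-type genes was 1.78 in cycling and 1.73 in endothelial-like cells. It was 1.12 and 1.04 in the MSC-like and OP-like cells that express Lepr, 1.01 in erythroid-like and 0.98 in OB-like cells. Erythroid-like and OB-like cells were then below both Lepr+ types.

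**Figure D3:**
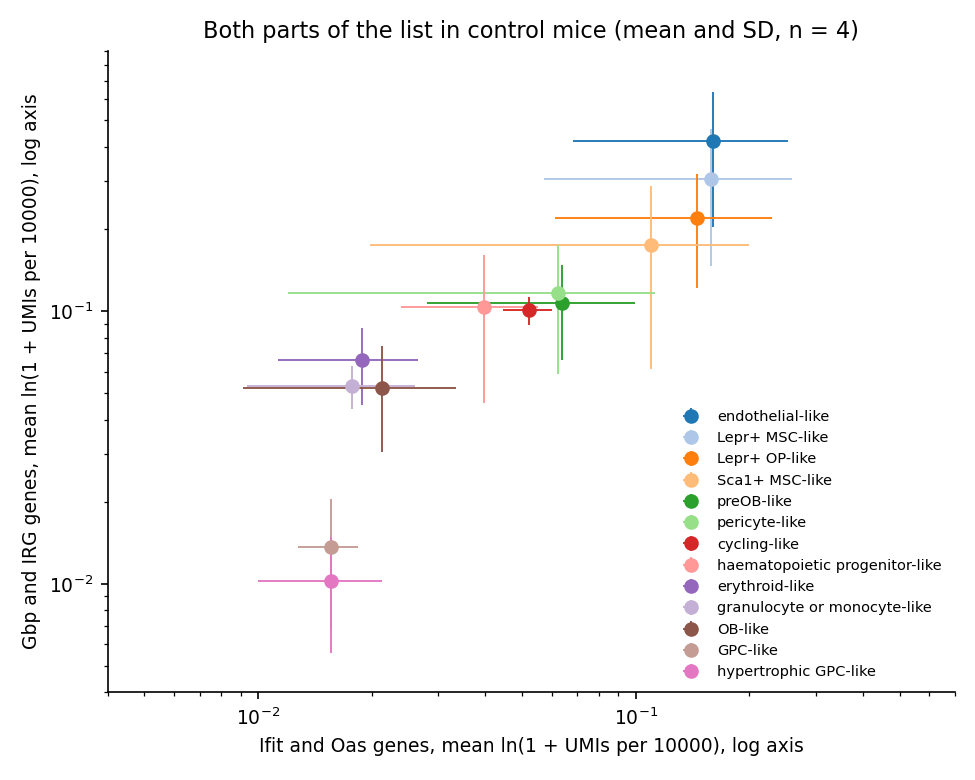
Level of the 13 Gbp and IRG genes against the level of the 7 Ifit and Oas genes, both as ln(1 + UMIs per 10000) on log axes, with 1 point per cell type (mean of the 4 controls, bars are SD). GPC-like and hypertrophic GPC-like cells lie lowest, with the smallest mean ratios of the 2 levels (0.861 and 0.743). Endothelial-like cells have the highest level of the Gbp and IRG genes, whereas the ratio is higher in erythroid-like cells (3.59 against 2.67).

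The share of cells with at least 1 UMI was high in endothelial-like and Lepr+ MSC-like cells, which overlapped within their SD, and low in OB-like and erythroid-like cells, which overlapped too. With each cell thinned to 2000 UMIs (1581 shallower cells left out), 79.2% ± 9.23 of endothelial-like cells of the 4 controls had a UMI of a Gbp or IRG gene and 31.5% ± 11.6 one of an Ifit or Oas gene. The values in Lepr+ MSC-like cells were 71.2% ± 14.3 and 29.8% ± 13.7, and without thinning 89.2% and 53.9%. In OB-like cells they were 13.4% ± 3.85 and 3.56% ± 2.18, and without thinning 45.4% and 14.2%. Erythroid-like cells, taken as the low comparison, had 19.8% ± 7.95 and 2.85% ± 0.571 (unthinned 75.4% and 29.4%, at median depths of 17470 to 32890 UMIs per cell against 9196 to 24140 in OB-like cells). The Gbp and IRG share of OB-like cells was below that of erythroid-like cells in 3 of 4 controls. It was above that of GPC-like (4.96% ± 1.81) and hypertrophic GPC-like cells (3.03% ± 1.37) in every mouse, so the share was not alike in all types of a library.

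Within a cell type the UMIs of the members were spread over most Lepr+ MSC-like and endothelial-like cells and held by fewer of the OB-like and Sca1+ MSC-like cells. Of the Lepr+ MSC-like cells, 0.532% to 3.01% of cells per mouse had no UMI of any member at the thinned depth, and the 10% of cells with the most member UMIs held 24.8% to 32.5% of them. At most 2.77% of the endothelial-like cells of a mouse had none. Among Sca1+ MSC-like cells, 49.0%, 52.2% and 52.4% had none in 3 of the mutants and at most 29.4% in the other 5 mice. In OB-like cells 31.9% to 48.1% of cells had none, and the top 10% held 42.3% to 52.1%. Both kinds of gene occurred together in OB-like cells of every mouse. An Ifit or Oas UMI was found in 5.39% to 21.4% of OB-like cells with a Gbp or IRG UMI and in 0.709% to 4.37% of those without one. When the interferon genes were kept in the clustering, a cluster of 825 OB-like cells was led by Cxcl9, Iigp1, Igtp, Ifit1, Ifit3 and Gbp2b.

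One library stood apart for these genes. The control mouse of replicate 1 at 13 weeks had the highest of 8 levels in 11 of the 13 types, all but cycling and granulocyte- or monocyte-like cells. In Lepr+ MSC-like cells the 39-gene level was 0.311 and 0.301 in the controls and 0.251 and 0.290 in the mutants at 7 weeks, and 0.558 and 0.263 in the controls and 0.304 and 0.239 in the mutants at 13 weeks. The 2 controls at 13 weeks were thus the highest and the third lowest of the 8 mice. In endothelial-like cells the corresponding values were 0.374, 0.355, 0.292, 0.342, 0.621, 0.294, 0.358 and 0.311, and again the other control at 13 weeks lay within the range of the mutants. Among members past the filter, that mouse was the highest of 8 for 31 of 37 in Lepr+ MSC-like cells (83.8%, beside 14.7% of all genes), 33 of 37 in endothelial-like, 32 of 36 in Lepr+ OP-like, 27 of 38 in OB-like and 22 of 26 in pericyte-like cells (beside 12.6% to 13.7% of all genes in these 4). In granulocyte- or monocyte-like cells it was the highest for 4 of 25, and the mutant of replicate 1 at 13 weeks, with 32 such cells, for 14 of 25.

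Both kinds of gene were high in this mouse. In Lepr+ MSC-like cells its Ifit and Oas level was 0.309, beside 0.102 to 0.116 in the other 3 controls, and its Gbp and IRG level was 0.539, beside 0.202 to 0.265. Markers of other cells in the Lepr+ MSC-like sums were measured beside it. The 11 granulocyte and monocyte markers summed to 856 CPM in this mouse, the highest of 8. In the other control and 1 mutant of the same age they summed to 687 and 656 CPM. The 7 macrophage markers lay at 13.97 to 25.8 CPM, with this mouse at 19.0, and the 9 lymphoid markers at 4.81 to 14.5 CPM, with this mouse at 12.7. The 7 megakaryocyte markers were highest in this mouse in 12 of 13 types, at 93.7 CPM against 93.3 CPM in the other control at 13 weeks in Lepr+ MSC-like cells and at 147 against 12.9 to 57.3 CPM in the other 7 mice in cycling cells. The 13 endothelial and 9 erythroid markers were highest in other mice in Lepr+ MSC-like cells. The part of these cells in the member levels was not tested.

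**Figure D4:**
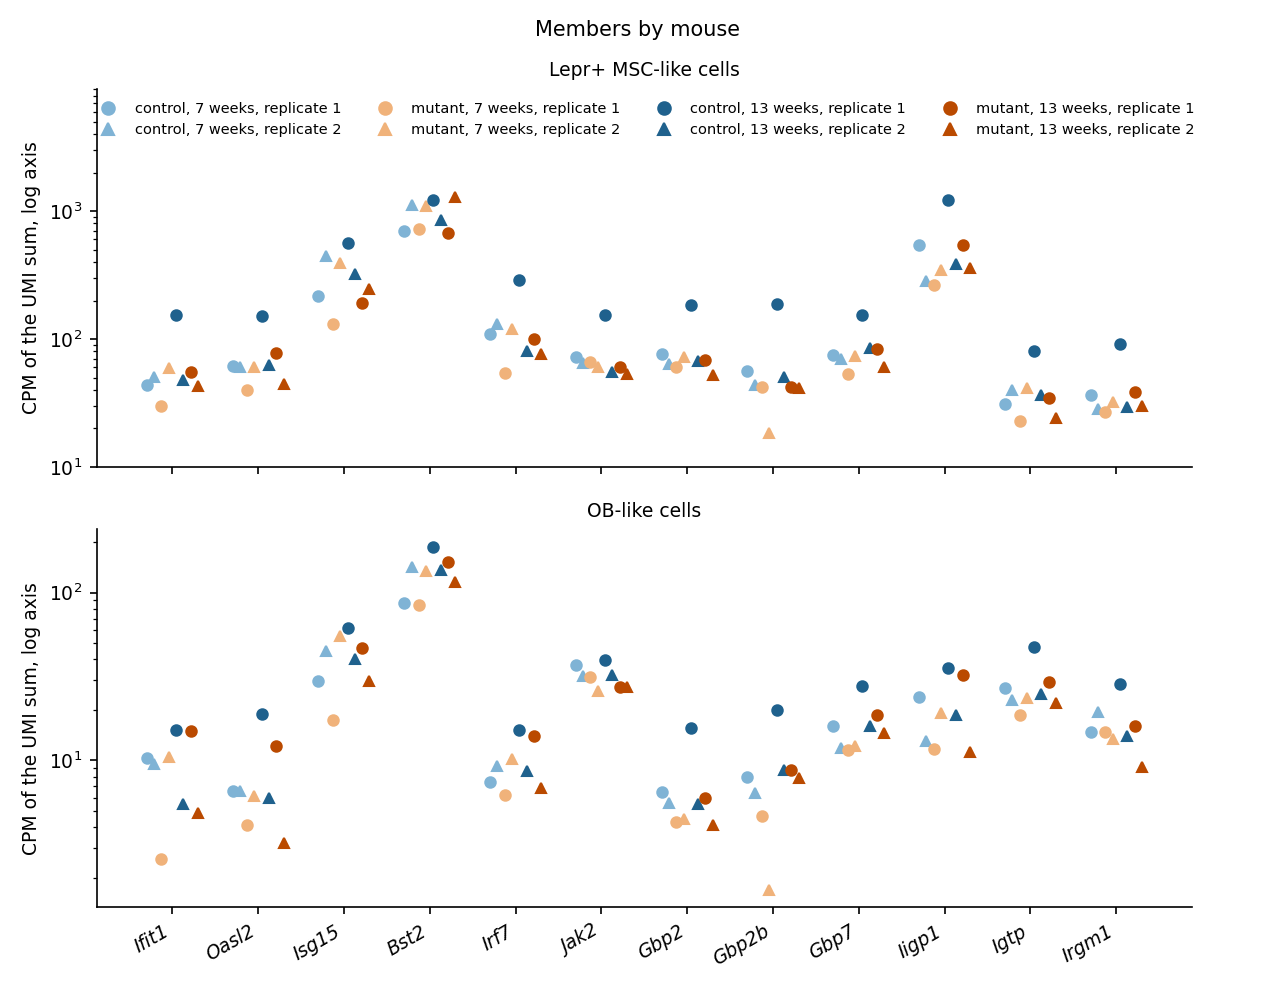
CPM of 12 members (log axis) in each of the 8 mice, in Lepr+ MSC-like cells above and OB-like cells below. In Lepr+ MSC-like cells the control mouse of replicate 1 at 13 weeks is the highest point for every gene shown but Bst2, as for Gbp2 (186 CPM beside 51.9 to 76.4 CPM in the other 7 mice).

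The genotype comparison asked whether the members differ between mutant and control cells. The study names Isg15, Irf7, Jak2, Gbp2, Gbp2b and Gbp7 from these same samples, so their direction here is not independent evidence. No member was called over both ages in any of 379 pairs of member and cell type past the filter (edgeR quasi-likelihood test, adjusted p at most 0.05), where 0.332% of all gene and cell type pairs were called. Nor was any called at 7 weeks (0.0390% of all pairs), at 13 weeks (0.0695%) or for the difference between the ages (0.000781%). At an unadjusted p under 0.05 there were 76 member pairs over both ages, 72 of them lower in the mutants (20.1% of member pairs, beside 5.65% of all pairs). There were 32 at 7 weeks (8.44% beside 3.87%), 77 at 13 weeks, 75 of them lower (20.3% beside 4.28%), and 16 for the difference between the ages (4.22% beside 2.31%). DESeq2 called 6 over both ages (0.527% of all pairs), 1 at 13 weeks (0.187%) and 0 at 7 weeks (0.128%) and for the difference (0.0109%). At an unadjusted p under 0.05 it gave 60 over both ages (15.8% beside 3.16% of all pairs), 56 at 13 weeks (14.8% beside 2.15%), 21 at 7 weeks (5.54% beside 1.93%) and 14 for the difference (3.69% beside 0.890%).

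The study describes its mutant and control mice as pairs of sisters, and neither its text nor the labels say which mice form a pair. Mice of the same age and number deviated together in 10 of 13 types, all but Sca1+ MSC-like, GPC-like and granulocyte- or monocyte-like cells. The limit was low, a correlation of deviations above 0.1 at both ages. In Sca1+ MSC-like cells the correlation was -0.0376 at 7 weeks and 0.101 at 13 weeks. Mice of the same number were also alike in depth, with replicate 1 the deeper library in every group, and the part of depth in these pairs was not tested. With these pairs as a block, edgeR called 13 pairs over both ages (1.77% of all pairs), 2 at 7 weeks (0.544%), 12 at 13 weeks (0.689%) and 0 for the difference. The block leaves few degrees of freedom for the spread among 8 mice. This fit was not repeated without the control of replicate 1 at 13 weeks, which is in 1 of the 2 pairs of that age. At an unadjusted p under 0.05 the block gave 145 pairs over both ages, 138 of them lower (38.3% beside 9.64% of all pairs), and 131 at 13 weeks, 124 of them lower (34.6% beside 7.54%). In OB-like cells 8 of these were called over both ages, and 8.79% of all genes were called there. They were Gbp2 (log2 fold change -0.73 ± 0.14), Gbp2b (-0.98 ± 0.19), Gbp3 (-0.60 ± 0.10), Irgm1 (-0.49 ± 0.09), Oasl2 (-0.56 ± 0.10), Rtp4 (-0.46 ± 0.09), Xaf1 (-0.34 ± 0.08) and Jak2 (-0.34 ± 0.07), with adjusted p from 0.00755 to 0.0242 (edgeR). The other 5 were Usp18, which removes Isg15 from proteins, in Lepr+ MSC-like cells (-0.88 ± 0.18), Rtp4 in Lepr+ OP-like cells (-0.52 ± 0.14), Xaf1 in Sca1+ MSC-like cells (-2.14 ± 0.41), Isg15 in pericyte-like cells (-0.99 ± 0.19) and Irf1 in preOB-like cells, which was higher (0.42 ± 0.12). At 7 weeks the pairs were Rsad2 in Lepr+ OP-like cells (-1.66 ± 0.34) and Gbp2b in preOB-like cells (-1.32 ± 0.32), both lower. At 13 weeks all 12 were lower. They were Gbp2 (-0.99 ± 0.20), Gbp3 (-0.71 ± 0.14), Irgm1 (-0.74 ± 0.13), Oasl2 (-0.74 ± 0.15) and Rtp4 (-0.64 ± 0.12) in OB-like cells, and Isg15 (-0.70 ± 0.15), Oasl2 (-0.80 ± 0.18), Irf7 (-0.66 ± 0.18) and Rtp4 (-0.87 ± 0.21) in Lepr+ OP-like cells. The remaining ones were Gbp7 (-3.14 ± 0.50) and Ifit3 (-3.46 ± 0.63) in Sca1+ MSC-like and Isg15 (-1.32 ± 0.27) in pericyte-like cells. Without the block none of these passed the edgeR test, and DESeq2 without a block called Xaf1 in Sca1+ MSC-like cells among them. The 7 megakaryocyte markers at 13 weeks stood at 56.9 and 37.1 CPM in the controls and 31.6 and 26.25 CPM in the mutants in OB-like sums. In Lepr+ OP-like sums they stood at 95.3 and 85.6 against 39.1 and 46.6 CPM. The genotypes overlapped in both at 7 weeks, and the part of such cells in the member levels was not tested.

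In Lepr+ MSC-like cells 35 of 37 members had a log2 fold change below 0 over both ages, with a median of -0.50 beside -0.0070 for all genes. The medians by role were -0.66 for Gbp, -0.59 for IRG, -0.56 for Ifit and Oas, -0.31 for antiviral and -0.29 for signalling genes. Gbp2b, a GTPase of the Gbp family, stood at 56.2, 44.0, 188 and 50.6 CPM in the controls (7 weeks, then 13 weeks) and at 41.9, 18.5, 42.4 and 41.4 CPM in the mutants. All 4 controls were above all 4 mutants, which held for 1 of 37 members and for 2.12% of all genes in this type. The log2 fold change was -1.11 ± 0.35 (adjusted p = 0.407, edgeR). Gbp2 had 76.4, 64.1, 186 and 67.6 CPM against 60.1, 72.1, 69.0 and 51.9 CPM (-0.58 ± 0.26, adjusted p = 0.716, edgeR), with overlap. Isg15 had 216, 447, 567 and 322 CPM against 130, 393, 192 and 245 CPM (-0.68 ± 0.32, adjusted p = 0.764, edgeR), also with overlap. Irf7 had 110, 132, 287 and 80.2 CPM against 54.5, 120, 99.7 and 77.0 CPM (-0.77 ± 0.34, adjusted p = 0.716, edgeR). Jak2 (-0.51 ± 0.25) and Gbp7 (-0.47 ± 0.20) overlapped between genotypes as well, as did Usp18 (-0.91 ± 0.32) and Tgtp2 (-0.93 ± 0.32). Bst2 (tetherin, which holds virions at the cell surface) and Irf1 lay near 0, at -0.05 ± 0.24 and 0.13 ± 0.16.

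The size of these medians moved with either control mouse at 13 weeks. At that age the median log2 fold change of the members in Lepr+ MSC-like cells was -0.79 with all mice and -0.05 without that mouse, when 22 of 37 members were below 0. It went from -0.32 to 0.06 in OB-like cells and from -0.43 to 0.17 in endothelial-like cells, and from -0.28 to 0.07 in Lepr+ OP-like cells. Gbp2 in Lepr+ MSC-like cells went from -1.07 ± 0.36 to -0.17 ± 0.26, Gbp2b from -1.50 ± 0.48 to -0.27 ± 0.34 and Irf7 from -1.05 ± 0.47 to 0.13 ± 0.38. In that setting the lone remaining control at 13 weeks is assumed to vary like the other groups. Over the 13 types, 24 of 397 member pairs had an unadjusted p under 0.05 at 13 weeks without it (6.05%, beside 3.61% of all pairs), 15 of them lower. Of these 1 was called, Gbp2b in cycling cells (-3.83 ± 0.66, adjusted p = 0.0371, edgeR), beside 0.0362% of all pairs. Without the other control at 13 weeks instead, 21 of 424 pairs were called (0.204% of all pairs), all lower, 12 of them in Sca1+ MSC-like and 6 in Lepr+ MSC-like cells, and the medians were -1.31 in Lepr+ MSC-like and -0.82 in endothelial-like cells. The share of member pairs with an unadjusted p under 0.05 was higher in that setting than with all mice, at 13 weeks and over both ages. Without the control of replicate 1 it was lower than with all mice in both comparisons. In Lepr+ MSC-like cells the medians over both ages were then -0.24 for Gbp, -0.11 for IRG and -0.15 for Ifit and Oas genes. They were -0.02 for antiviral and -0.04 for signalling genes. Over both ages the count was 0 with all mice, 0 without the first mouse (0.194% of all pairs) and 17 without the second (0.435%). In cycling cells, unlike the types above, the medians of the Gbp and IRG genes past the filter lay further below 0 without the first mouse, at -2.63 after -2.0 (Gbp) and -2.90 after -1.97 (IRG). The filter was applied anew without a mouse, so the medians compared can cover different members. In cycling cells the medians at 7 weeks, where this mouse is in neither group, moved too. They went from -0.44 to -0.61 (Gbp) and from -0.30 to -0.65 (IRG), and the part of the filter in these shifts was not tested. These cells were few (436 in all 8 mice), and the 11 granulocyte and monocyte markers in their sums stood at 111 and 70.7 CPM in the controls and at 24.7 and 22.4 CPM in the mutants at 13 weeks. The part of such cells in the member levels was not tested. The control of replicate 1 at 13 weeks plays no part in the contrast at 7 weeks, though it enters the estimate of the spread that all groups share. In that contrast the median in Lepr+ MSC-like cells was -0.18, with 30 of 37 below 0 and no member at an unadjusted p under 0.05. Set against the control of the same age and number, the 39-gene level in Lepr+ MSC-like cells of the mutants differed by -0.0595 and -0.0113 at 7 weeks and by -0.254 and -0.024 at 13 weeks. The mutant was the lower of all 4 such pairs in 6 of 13 types (Lepr+ MSC-like, Sca1+ MSC-like, pericyte-like, cycling, erythroid-like and OB-like cells). The types share the same 8 mice and are not separate findings, and the labels do not give the pairing. Some differences were small, as for replicate 2 at 7 weeks in OB-like (-0.00255) and erythroid-like cells (-0.00407). The 7 megakaryocyte markers at 13 weeks stood at 93.7 and 93.3 CPM in the controls and 67.9 and 63.6 CPM in the mutants in Lepr+ MSC-like sums. In endothelial-like sums they stood at 140 and 134 against 99.6 and 76.5 CPM. At 7 weeks the genotypes overlapped in both, and the part of such cells in the member levels was not tested.

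**Figure D5:**
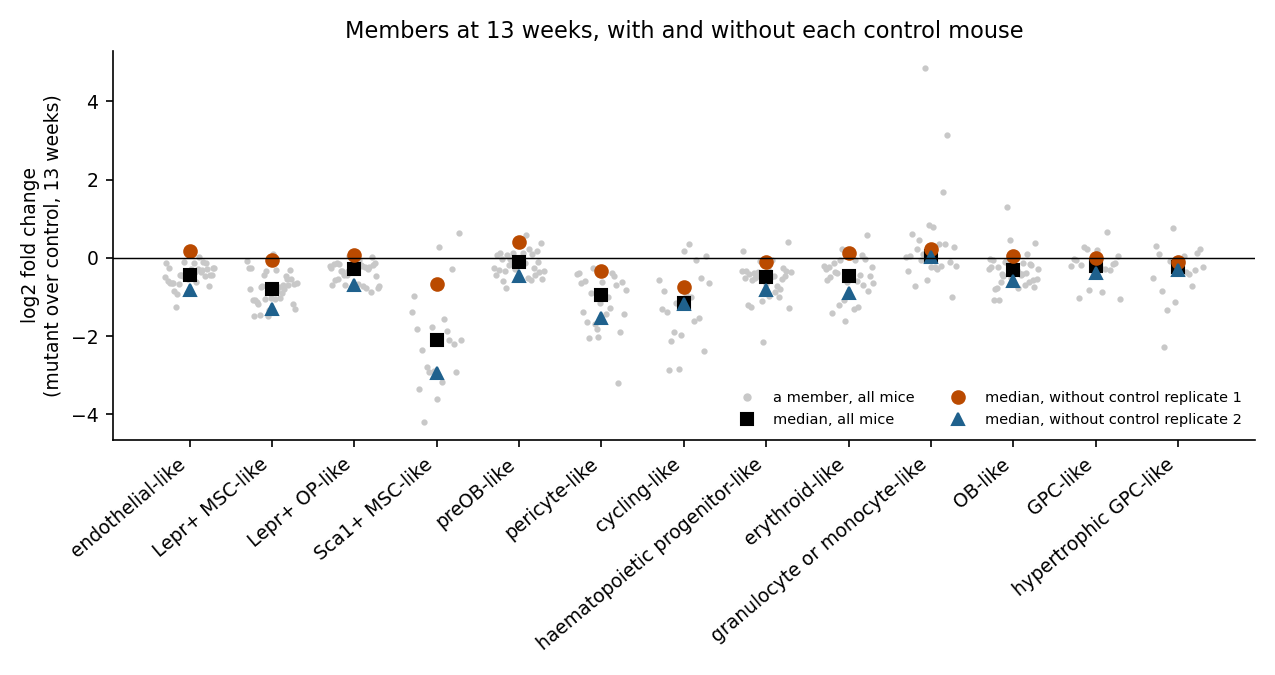
Median log2 fold change of the members, mutant against control at 13 weeks, in each cell type with all mice (squares), without the control of replicate 1 (circles) and without that of replicate 2 (triangles) and grey points for the members. Without replicate 1 the median moves from -0.79 to -0.05 in Lepr+ MSC-like cells, from -0.32 to 0.06 in OB-like cells and from -0.43 to 0.17 in endothelial-like cells, and it stays furthest below 0 in Sca1+ MSC-like (-2.11 and -0.67) and cycling cells (-1.16 and -0.75). The filter on low counts was applied anew without a mouse, so the medians of a type can cover different members.

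Sca1+ MSC-like cells had the largest median difference, with few cells behind it (567 in all 8 mice). These were unevenly shared, with 31, 38, 43 and 56 cells in the controls and 28, 167, 158 and 46 in the mutants. Sox4 differed by -1.05 ± 0.31 over both ages in this type (adjusted p = 0.198, edgeR) and by -0.50 ± 0.42 at 13 weeks. Over both ages 20 of 21 members past the filter were below 0, with a median log2 fold change of -1.71, and 15 had an unadjusted p under 0.05. Without the control mouse of replicate 1 at 13 weeks the median was -0.999, and 6 had an unadjusted p under 0.05. Isg15 stood at 111, 254, 207 and 32.5 CPM in the controls and at 55.0, 32.3, 24.2 and 43.7 CPM in the mutants, a log2 fold change of -2.18 ± 0.54 (adjusted p = 0.116, edgeR). The control of replicate 2 at 13 weeks lay among the mutants. Irf7 had 11.7, 78.3, 76.4 and 26.0 CPM against 12.7, 5.38, 6.90 and 3.64 CPM (-2.89 ± 0.68, adjusted p = 0.0950, edgeR). DESeq2 called Isg15 (-2.12 ± 0.55), Irf7 (-2.94 ± 0.75), Ifi44 (-4.33 ± 1.12), Oasl2 (-2.35 ± 0.64), Xaf1 (-2.03 ± 0.57) and Iigp1 (-2.32 ± 0.59) in these cells over both ages, with adjusted p from 0.0105 to 0.0282, and Iigp1 at 13 weeks. For 3 of the 21 members all 4 controls were above all 4 mutants, as for 2.11% of all genes in this type. The 7 haematopoietic progenitor markers summed to 139.9, 176, 217 and 94.2 CPM in the controls and to 50.7, 24.2, 161.5 and 32.8 CPM in the mutants, lower in both mutants than in both controls at 7 weeks and with overlap at 13 weeks. The same held for the 11 granulocyte and monocyte markers, at 46.6, 71.7, 118 and 26.0 CPM against 33.8, 24.2, 19.3 and 40.1 CPM. The part of such cells in the member levels was not tested.

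In OB-like cells 32 of 38 members were below 0 over both ages (median -0.31), and in endothelial-like cells 36 of 37 (median -0.31). Without the control of replicate 1 at 13 weeks the medians were -0.06 and -0.07. The 11 granulocyte and monocyte markers in the OB-like sums stood at 42.8, 29.6, 68.1 and 50.5 CPM in the controls and at 13.9, 14.7, 26.2 and 24.7 CPM in the mutants. All controls were above all mutants, in preOB-like sums too (69.6 to 126 against 19.96 to 42.4 CPM), and the part of such cells in the member levels was not tested. Gbp2b in OB-like cells had 7.99, 6.45, 19.9 and 8.73 CPM in the controls and 4.65, 1.69, 8.84 and 7.87 CPM in the mutants (-0.97 ± 0.30, adjusted p = 0.194, edgeR without the block). Jak2 had 37.2, 32.0, 39.8 and 32.4 CPM against 31.6, 25.9, 27.3 and 27.5 CPM (-0.34 ± 0.11, adjusted p = 0.215, edgeR), and it was the 1 member of 38 in OB-like cells with all controls above all mutants, as were 3.10% of all genes there. In endothelial-like cells, which do not belong to the lineage in which OsxCre acts by design, Sox4 differed by -0.23 ± 0.15 and Gbp2b by -0.83 ± 0.18 (adjusted p = 1.00, edgeR). Pericyte-like cells had a median of -0.73 (25 of 26 below 0), with Isg15 at 197, 259, 351 and 194 CPM against 83.0, 209, 142 and 73.1 CPM (-0.94 ± 0.27, adjusted p = 0.378, edgeR). Cycling cells had a median of -0.72, erythroid-like cells of -0.50, haematopoietic progenitor-like cells of -0.45 and Lepr+ OP-like cells of -0.19. Without the control of replicate 1 at 13 weeks these 5 medians were -0.42, -0.76, -0.18, -0.21 and 0.05 (pericyte-like cells first). In pericyte-like cells at 13 weeks the median went from -1.38 to 0.04 for the Gbp genes and from -1.695 to 0.71 for the Ifit and Oas genes past the filter. The filter was applied anew, so these medians can cover different members. At 7 weeks, where this mouse is in neither group, the IRG median of pericyte-like cells also moved, from -0.93 to -0.58. The pericyte-like medians at 13 weeks of the signalling (-0.76 to -0.80), IRG (-1.14 to -0.32) and antiviral genes (-0.70 to -0.26) stayed below 0. PreOB-like (0.07), GPC-like (0.11) and hypertrophic GPC-like (0.13) cells had medians above 0, and granulocyte- or monocyte-like cells had -0.05. When near-identical pairs were summed, Ifit3 and Ifit3b lay at -0.86 ± 0.46 and Tgtp1 and Tgtp2 at -0.91 ± 0.31 in Lepr+ MSC-like cells, and neither pair was called in any type.

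Age was compared in the controls. Isg15 was the 1 member called, in hypertrophic GPC-like cells (0.202% of all gene and cell type pairs were called). It stood at 16.0 and 26.7 CPM at 7 weeks and at 6.62 and 4.71 CPM at 13 weeks, a log2 fold change of -1.89 ± 0.33 (adjusted p = 0.0235, edgeR), and the mutants had 9.53 and 12.1 CPM against 2.61 and 4.36 CPM. All 4 younger mice lay above all 4 older ones. DESeq2 called no member and gave this pair no adjusted p, with 58 pairs at an unadjusted p under 0.05 (15.3%, beside 4.32% of all pairs). By edgeR there were 84 such pairs (22.2% beside 7.61%), 4 of them lower at 13 weeks. Their share was lower without the control of replicate 1 at 13 weeks and higher without that of replicate 2 at that age. By edgeR the pair was not called without the control of replicate 2 at 7 weeks or without that of replicate 1 at 13 weeks (-2.16 ± 0.45, adjusted p = 0.233). The medians were above 0 in all 13 types with all mice (0.07 to 0.82), but lay between -0.93 and 0.41, with 7 below 0, without the control of replicate 1 at 13 weeks.

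The other genes of the pathway were read from a list of ligands, receptors, kinases and STATs, inhibitors, sensors, chemokines and further interferon-stimulated genes, of which 64 of 66 had a row. The 10 ligands gave 8 UMIs in 59629 cells, namely 4 of Ifnb1, 3 of Ifnk and 1 of Ifng, and the other 7 gave none, which allows a share of up to 0.00503% of cells with a UMI (counting error only). The receptors were detected, with 66291 UMIs of Ifnar2 and 62669 of Ifngr1. Ifnar2 stood at 311 to 380 CPM in Lepr+ MSC-like cells of all 8 mice, with the 13-week control of replicate 1 at 376 CPM, inside the range. Of 50 listed genes past the filter, 45 were higher in Lepr+ MSC-like than in OB-like cells (beside 34.8% of all genes) and 2 lower, including all 5 receptors past the filter (Ifnar1 1.12 ± 0.11, Ifnar2 1.07 ± 0.09, Ifngr1 0.51 ± 0.10, Ifngr2 0.97 ± 0.09) and Cxcl9 (4.62 ± 0.35) and Cxcl10 (3.44 ± 0.27), chemokines that attract T cells. Endothelial-like cells had 10 of 46 higher and 17 lower than Lepr+ MSC-like cells, beside 28.0% and 30% of all genes, with Ifnar2 at -1.24 ± 0.11 and Ifngr2 at -1.29 ± 0.11.

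Between genotypes 2 listed genes were called over both ages among 519 pairs (0.385%, beside 0.332% of all pairs), both in Sca1+ MSC-like cells. Ifi27l2a, a small interferon-induced protein, had 105, 84.8, 455 and 143 CPM in the controls and 12.7, 5.38, 5.52 and 0 CPM in the mutants. The groups did not overlap, and the log2 fold change was -4.96 ± 0.55 (adjusted p = 0.00275, edgeR). It was called at 13 weeks too (-6.17 ± 0.75), and without the control of replicate 1 at that age over both ages (-4.37 ± 0.42, adjusted p = 3.85e-04, edgeR). Psmb8, a subunit of the immunoproteasome, had 81.6, 157, 194 and 159 CPM against 67.7, 33.6, 41.4 and 43.7 CPM (-1.81 ± 0.33, adjusted p = 0.0323, edgeR), and missed the threshold without that mouse (adjusted p = 0.0534, edgeR), without any of 3 other mice (highest adjusted p = 0.233) and with the interferon genes in the clustering (0.0991). Cxcl9 in cycling cells was called at 7 weeks, at 162 and 167 CPM against 0 and 12.3 CPM (-4.50 ± 0.72, adjusted p = 0.0264, edgeR). It was not called without any 1 of the 4 mice of that age or with the interferon genes in the clustering (adjusted p = 0.486, edgeR).

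The genes whose pattern was most like that of the members were found over 104 points, 1 per mouse and cell type, by Pearson's r between their log2(CPM + 1) and the mean log2(CPM + 1) of the members. Among 10691 genes past the filter in at least 6 types, the 10 most alike included Parp10 (r = 0.90), Ifitm3 (0.90), Slfn5 (0.90), Samd9l (0.89), Trim56 (0.89), Gm4951 (0.89), Frmd4a (0.88), Lgals8 (0.88) and Atp2c1 (0.88). The points of one mouse share a library, and these values are a description.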

How the data were processed

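Bone cells of 8 mice were sequenced with a 3′ single-cell kit, 1 library per mouse. The values deposited by the authors are unnormalized UMI counts, and the submitters' processing notes name Cell Ranger 6.1.2, Seurat 4.3 and mm10. Barcodes with 200 to 6000 genes and at most 10% mitochondrial UMIs were kept, and doublets were removed by comparison with simulated ones (9.67% to 11.3% of barcodes). Cells were integrated with Seurat 5.3.0 (2000 variable genes without interferon genes, 30 components) and clustered with leidenalg 0.10.2 at resolution 1. Clusters were named from markers, and the rule that separates Lepr+ OP-like from preOB-like cells was set after the clusters were seen. Clusters with median UMIs under 33.3% of their library's were left out of the types.

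UMI counts were summed per mouse and cell type (at least 10 cells) and tested over all genes with edgeR 4.0.16 (quasi-likelihood test, TMM, filterByExpr, 1 mean per genotype and age, two-sided, Benjamini-Hochberg, threshold 0.05) in R 4.3.3. DESeq2 1.42.0 was an alternative. When a mouse was left out, the filter on low counts was applied anew, so the members past it could differ. Fold changes of cell types used the 4 controls with the mouse as a block. Counts of 3′ ends are not divided by length, so levels are not compared between genes. On simulated counts with a log2 change of 1 over both ages, 77% of changed genes were recovered in OB-like cells (14562 genes), 71% in Lepr+ MSC-like (11583) and 73% in endothelial-like cells (10678). The changed genes were drawn at random from all genes past the filter, and no mouse was made to stand apart. These shares are thus not those to be expected for the members, and a member not called may still differ. Intervals and floors cover counting error only. The check of pairing gave correlations of deviations of -0.239 to 0.405 between mice of the same age and number.

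The members and the lists of pathway genes and markers were chosen with earlier results of these data known. The genes named were members called in a genotype comparison, the 3 most abundant per role, those the study names, the largest change over both ages per role in Lepr+ MSC-like and OB-like cells, pathway genes called, the 10 genes most like the members, Sox4 and the near-identical pairs. Others, such as Trim30a, Gbp4, Gbp5 and Socs1 between cell types, were chosen after their values were seen. A gene among the 10 most like the members is not reported here. Promoter sequences are from RefSeq (GRCm38.p6).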

Additional observations from a re-analysis of the deposited data

Results flagged for a closer look

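Levels, as mean ln(1 + UMIs per 10000), were searched for a mouse far from the other 3 of its genotype in 78 groups of 4 mice (13 types, 2 genotypes and 3 gene sets), where chance gives about 1 in 20 for a single group. Such a mouse was found in 17 groups. The groups reuse the same 8 mice, the set of all members holds the other 2 sets, and the 17 come from 3 mice, so they are not separate findings and their number is not read against that rate.

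The control of replicate 1 at 13 weeks accounted for 11 of them. Over all members it had 0.558 in Lepr+ MSC-like cells (next 0.311), 0.438 in Lepr+ OP-like (next 0.259), 0.122 in OB-like (next 0.0825), 0.195 in haematopoietic progenitor-like (next 0.111) and 0.134 in erythroid-like cells (next 0.0904). Its Ifit and Oas level was 0.309 in Lepr+ MSC-like cells (next 0.116), 0.272 in Lepr+ OP-like (next 0.108) and 0.0395 in OB-like cells (next 0.0163). Its Gbp and IRG level was 0.344 in Sca1+ MSC-like cells (next 0.132), 0.0852 in OB-like (next 0.0433) and 0.189 in haematopoietic progenitor-like cells (next 0.0783).

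The mutant of replicate 1 at 13 weeks accounted for 4. In granulocyte- or monocyte-like cells it had 0.136 over all members (next 0.0842), 0.0670 for Ifit and Oas (next 0.0121) and 0.0855 for Gbp and IRG genes (next 0.0441), and in OB-like cells 0.0467 for Gbp and IRG genes (next 0.0330). The mutant of replicate 1 at 7 weeks had the other 2, with a Gbp and IRG level of 0.129 in Sca1+ MSC-like cells (next 0.0499) and of 0.0129 in GPC-like cells (next 0.0105).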

How the results depend on the processing

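Counts of member and cell type pairs called were 0 in the 4 genotype comparisons, and they stayed at 0 with RLE size factors, library size alone, a mitochondrial limit of 5%, clusters made with the interferon genes and near-identical pairs summed. The summed pairs were chosen after seeing the data, as were library size alone and those clusters at 7 weeks, for the difference and for age. With no filter on low counts edgeR called 53 of 503 pairs over both ages (10.5%, beside 0.876% of all pairs), 14 at 7 weeks (2.78% beside 0.445%), 58 at 13 weeks (11.5% beside 0.547%), 4 for the difference between the ages (0.795% beside 0.174%) and 59 for age in controls (11.7% beside 1.18%), and the cause was not tested. DESeq2 called 6 over both ages, 1 at 13 weeks and 0 for age, where edgeR called 1. With the replicate block, which was not refitted without any mouse, the counts were 13, 2 and 12 over both ages, at 7 and at 13 weeks. The count for the difference was 0. Without the block, leaving out each mouse in turn gave 0 to 17 over both ages, 0 to 21 at 13 weeks, 0 at 7 weeks and for the difference, and 0 to 16 for age, and a lone mouse left in a group is assumed to vary like the others. The 17, 21 and 16 came without the control of replicate 2 at 13 weeks. The cell type counts were 35 and 22 and ranged from 32 to 35 and from 17 to 21 without 1 mouse. Thinning moved the share of Lepr+ MSC-like cells with a Gbp or IRG UMI from 89.2% to 71.2%. Types with few cells, such as Sca1+ MSC-like cells (567), rest on few UMIs per gene.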
